A study of Rattus norvegicus with 30 samples.

Results

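Proteasome subunit genes were followed in primary rat hepatocytes exposed to beta-naphthoflavone (BNF). The genes were taken by name: every gene with 1 symbol in the annotation of the array whose symbol starts with Psma, Psmb, Psmc, Psmd, Psme or Psmf and a number, and where a gene had several probe sets the brightest over the 30 arrays stood for it. This gave 42 of the 14217 genes tested, of which Psmc3ip and Psme3ip1 encode proteins that are not proteasome subunits and were set apart (neither was called in any comparison below). The other 40 comprised 13 genes of the 20S core (Psma1 to Psma7, Psmb1 to Psmb5 and Psmb7), 20 of the 19S particle (Psmc1 to Psmc6 and Psmd1 to Psmd14), 3 of the immunoproteasome (Psmb8, Psmb9 and Psmb10) and 4 that encode activators or an inhibitor (Psme1, Psme2, Psme4 and Psmf1). Psmb6, which encodes a catalytic core subunit, was not analysed here because its probe set carries more than 1 symbol.

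BNF is a synthetic flavone that activates the aryl hydrocarbon receptor (AhR). Frozen hepatocytes of male Sprague Dawley rats, bought from a supplier, were thawed, plated on collagen and covered with Matrigel, an extracellular matrix gel. On day 3 they received 1 µM BNF, 100 µM BNF or the vehicle alone, 1% dimethyl sulfoxide (DMSO), which all groups carried, and RNA was taken 24 or 48 h later. There were 6 groups, with 5 arrays from 5 separate wells in each. The labels do not tie wells to animals, so p-values measure the spread between wells, and precision is limited by having 5 arrays a group. The arrays give RNA levels alone: neither proteasome protein nor its activity was measured, and in whole cultures fewer cells of a type and less RNA per cell cannot be told apart.

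The proteasome is the protease that degrades proteins tagged with ubiquitin. Its barrel, the 20S core, has outer rings of alpha subunits and inner rings of beta subunits, and Psmb5, Psmb6 and Psmb7 carry the catalytic sites. The 19S particle caps the barrel: its base holds the ATPases (Psmc genes) that unfold substrates and its lid removes the ubiquitin chain. Under interferon, Psmb8, Psmb9 and Psmb10 replace the 3 constitutive catalytic subunits and give the immunoproteasome, which is best known for making peptides for class I antigen presentation. When proteasome activity falls, cells are known to raise the subunit genes together through the transcription factor NRF1 (Nfe2l1), which binds antioxidant response elements, the DNA sites that NRF2 (Nfe2l2) also uses.

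Promoters are shown for 6 members as examples, picked after their values were seen and not by rank. Of these, 3 rose at 100 µM and hold an antioxidant response core. The other 3 were higher in vehicle at 48 h than at 24 h and hold an interferon response motif. Psmd1, with 3 antioxidant response cores, and Psmb9, with 1, are not shown. RefSeq promoters of assembly GRCr8 (250 bases before to 50 after the start) were matched for 36 of the 40 members. The core of the antioxidant response element, TGANNNNGC, is in capitals, on either strand, in Psmd5 at chr3:38548491-38548690 (minus strand), Psma5 at chr2:198584305-198584504 (plus strand) and Psmb5 at chr15:32047380-32047579 (minus strand), each 200 bases ending at the base before the start. Of 3 matches in the Psmd5 window, 2 lie in the stretch shown.
Psmd5: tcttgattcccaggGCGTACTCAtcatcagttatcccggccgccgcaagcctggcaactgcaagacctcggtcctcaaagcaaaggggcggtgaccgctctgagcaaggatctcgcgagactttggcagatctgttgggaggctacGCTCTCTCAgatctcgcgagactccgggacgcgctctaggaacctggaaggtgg
Psma5: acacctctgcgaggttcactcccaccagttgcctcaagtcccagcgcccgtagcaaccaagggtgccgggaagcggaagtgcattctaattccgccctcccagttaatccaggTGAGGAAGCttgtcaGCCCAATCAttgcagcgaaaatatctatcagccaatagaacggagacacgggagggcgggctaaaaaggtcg
Psmb5: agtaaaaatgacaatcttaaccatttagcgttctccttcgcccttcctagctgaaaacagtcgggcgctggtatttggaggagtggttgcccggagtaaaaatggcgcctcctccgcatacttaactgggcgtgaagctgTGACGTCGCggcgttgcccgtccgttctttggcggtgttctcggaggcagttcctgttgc
TGANNNNGC was found in 19 of the 36 member promoters and in 40.5% of all 33469 promoters of the same length. It was found in 8 of 17 members called at 100 µM and 24 h and in 11 of the 19 not called. The counts were 8 of 18 and 11 of 18 for the calls at 48 h. GCGTG, the core of the AhR response element, was in 19 of 36 member promoters and in 29.7% of all. CCAAT, which NF-Y binds, was in 19 (37.5% of all), and GGGCGG, an Sp1 motif, in 24 (33.1% of all), each searched on both strands.

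The interferon response motif, GAAA followed after any 2 bases by GAAA, is in capitals in Psmb10 at chr19:50743293-50743492 (minus strand), Psmb8 at chr20:4657026-4657231 (minus strand) and Psme2 at chr15:33052752-33052951 (minus strand), 3 genes that were higher in vehicle at 48 h than at 24 h. The Psmb8 stretch is 206 bases long and runs 6 bases past the start, so that its match is whole.
Psmb10: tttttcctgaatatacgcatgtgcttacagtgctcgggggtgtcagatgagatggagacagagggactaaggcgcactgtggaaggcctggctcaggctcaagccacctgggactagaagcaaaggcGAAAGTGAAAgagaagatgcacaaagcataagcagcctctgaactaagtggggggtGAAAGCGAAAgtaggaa
Psmb8: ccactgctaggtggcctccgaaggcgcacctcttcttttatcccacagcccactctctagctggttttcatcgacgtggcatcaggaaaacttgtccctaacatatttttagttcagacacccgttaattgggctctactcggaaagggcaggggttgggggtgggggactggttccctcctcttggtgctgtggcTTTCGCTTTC
Psme2: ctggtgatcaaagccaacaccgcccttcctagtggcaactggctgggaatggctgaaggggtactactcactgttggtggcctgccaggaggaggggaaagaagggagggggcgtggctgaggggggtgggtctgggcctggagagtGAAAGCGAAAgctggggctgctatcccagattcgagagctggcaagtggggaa
This motif was found in 6 of the 36 member promoters, Psma4, Psmb3, Psmd7, Psme2, Psmb8 and Psmb10 (with 2 matches), and in 3.92% of all promoters. In vehicle at 48 h against 24 h Psma4 was called higher (0.18), and Psmb3 (0.11) and Psmd7 (0.06) were not called. Psmb9 was called higher (0.38) and holds no match. The 5 motifs can overlap each other by some bases, and a match is a description of the letters in this window.

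All 40 genes read above the median gene. The median member lay at percentile 94.7 of the gene means, 29 lay at percentile 90 or above, and Psmb10 was the lowest, at percentile 67.2. A probe set's signal also depends on its probes, so these ranks do not say which subunit had more RNA. Within a group the members had a median SD of 0.09 on the log2 scale, against 0.22 over all genes, so small changes could pass the test. For that reason counts of calls are set below beside those of all genes and of the genes at percentile 90 or above. The latter are called the brightest genes here, a background added after the values were seen. Counts by unadjusted p have no such background beside them, so they are not read as an excess over all genes. Median signals per array ran from 827 to 919, and control probe sets at the 3' end exceeded those at the 5' end by 0.09 to 0.21 log2 units for Gapdh and by 1.21 to 1.56 for beta-actin, with ranges that overlapped between the groups. Cyp1a1 and Nqo1, taken as a check of the exposure, were called higher in all 4 comparisons with vehicle.

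BNF at 100 µM raised about the same number of proteasome genes at both times, by small amounts. Genes were called in limma where the adjusted p was under 0.05, with Benjamini-Hochberg adjustment over all 14217 genes. At 24 h 21 of the 40 were called higher and 0 lower, where 10.7% of all genes were called higher and 10.4% lower. Unadjusted p was under 0.05 for 24 members higher and 1 lower (Psme4). At 48 h 20 were called higher and 0 lower, against 8.79% and 8.62% of all genes (13 higher when only those 2 groups were fitted), and unadjusted p was under 0.05 for 25 higher and 0 lower. The largest rise was that of Psmd5 at 24 h, 1.30-fold. Among the brightest genes, 27.4% of genes and 20 of the 29 members were called higher at 24 h, and 21.3% of genes and 16 of the 29 members at 48 h. The median log2 fold change of the 40 was 0.15 at each time, against 0.04 at 24 h and 0.02 at 48 h over all genes. In the 10 members of highest mean signal it was 0.11 at 24 h and 0.02 at 48 h. It was 0.19 and 0.17 in the 20 members between, and 0.07 and 0.15 in the 10 of lowest signal. The part of signal level in these differences was not tested. Groups did not overlap, with BNF higher, for 13 members at 24 h (6.89% of all genes) and 8 at 48 h (6.66%). Over the 18 alternatives run for each comparison (with single probe sets set aside), 15 of the 21 calls at 24 h and 10 of the 20 at 48 h held in every one.

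**Figure D1:**
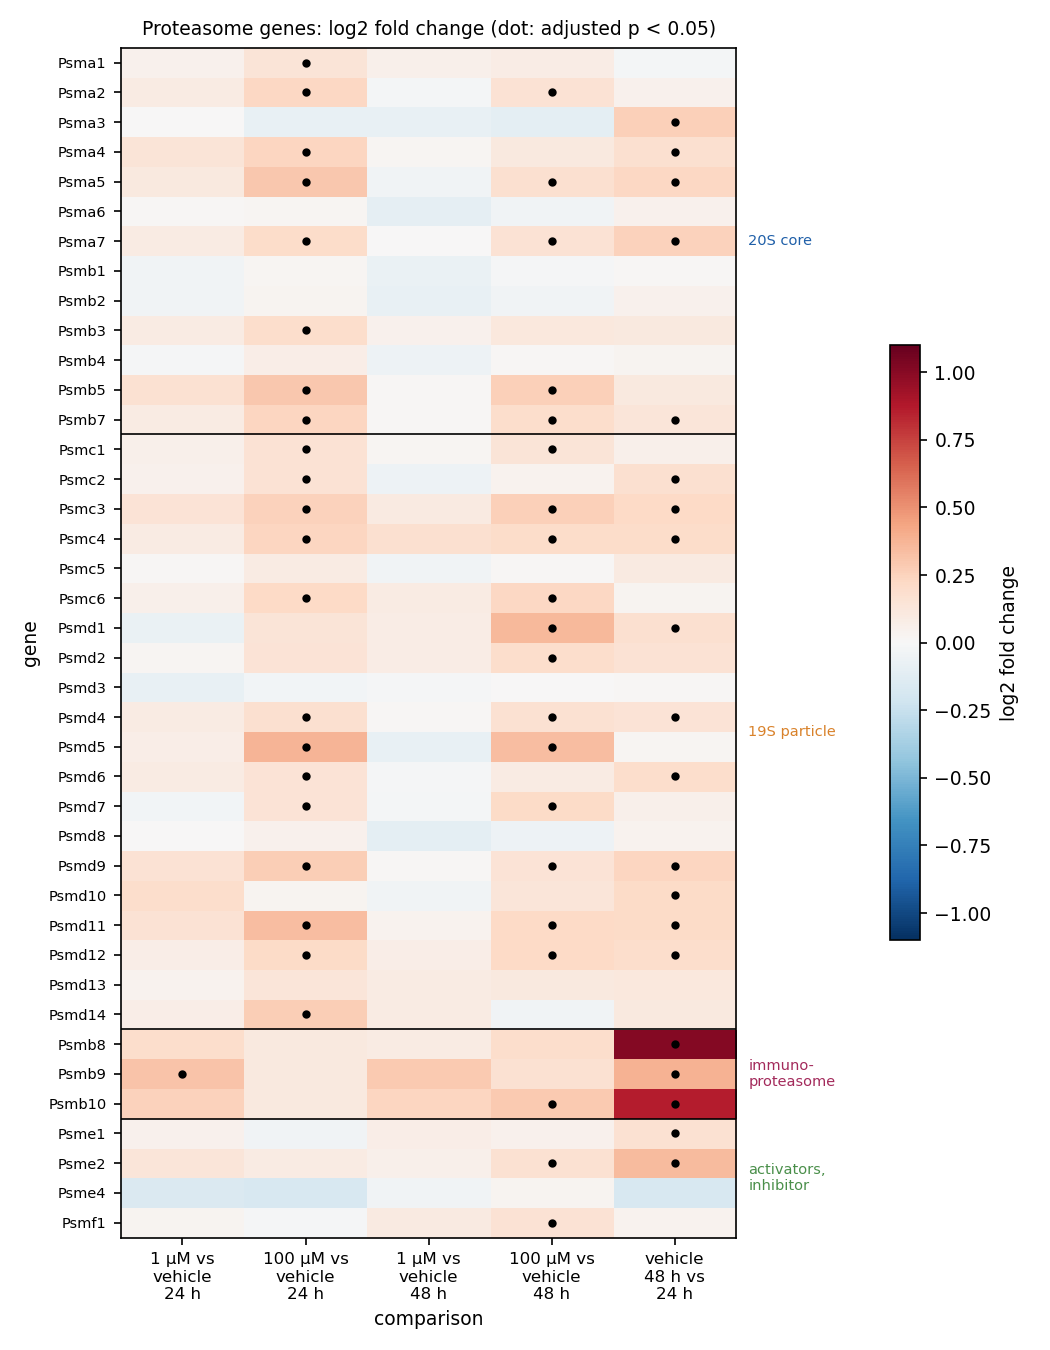
Log2 fold changes of the 40 proteasome genes (rows, by class) in 5 comparisons (columns), with red for higher and blue for lower signal in the first group named and a dot for an adjusted p under 0.05. Dots fill 21 and 20 rows in the 100 µM columns, and the darkest cells are Psmb8 and Psmb10 in the comparison of vehicle at 48 h with vehicle at 24 h.

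At 1 µM few members were called. Psmb9 alone was called higher at 24 h (1.91% of all genes were, and 2.40% lower) and 0 members were called at 48 h (0.288% of all genes higher and 0.521% lower). Unadjusted p was under 0.05 for 15 members higher and 1 lower at 24 h, and for 3 higher and 1 lower at 48 h. These unadjusted counts have no share of all genes beside them, so no response beyond the calls is read from them. The median log2 fold change of the 40 was 0.07 at 24 h and 0.01 at 48 h, against 0.03 and 0.02 over all genes. Groups did not overlap, with 1 µM higher, for 2 members at 24 h (2.35% of all genes) and 2 at 48 h (1.55%). Both doses were compared with the same vehicle arrays at each time.

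In the 20S core, 8 of the 13 genes rose at 100 µM and 24 h (5 of 7 alpha and 3 of 6 beta subunits) and 5 at 48 h (3 alpha and 2 beta). Of all genes 10.7% were called higher at 24 h and 8.79% at 48 h, and of the brightest genes 27.4% and 21.3%. Log2 fold changes of the 13 core genes ran from -0.08 (Psma3) to 0.30 (Psma5) at 24 h and from -0.11 (Psma3) to 0.26 (Psmb5) at 48 h. Those called at 24 h were Psma1, Psma2, Psma4, Psma5, Psma7, Psmb3, Psmb5 and Psmb7, and at 48 h Psma2, Psma5, Psma7, Psmb5 and Psmb7.

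Psma5 encodes an alpha ring subunit and had the smallest adjusted p of the 40 at 24 h. Psma5 signals at 24 h were 22457, 22004, 23990, 22330 and 22956 in vehicle, 23467, 24320, 25993, 24817 and 24481 at 1 µM and 26956, 28274, 29120, 27206 and 28263 at 100 µM. At 48 h, Psma5 read 27348, 29255, 25605, 25977 and 25204 in vehicle, 27673, 25774, 25025, 26350 and 25161 at 1 µM and 29283, 30964, 30933, 29960 and 30046 at 100 µM. Every 100 µM array read above every vehicle array and every 1 µM array of its time. The log2 fold change against vehicle was 0.30 at 24 h (SE 0.04, adjusted p = 1.12e-06 in limma) and 0.18 at 48 h (SE 0.04, adjusted p = 0.00110). At 1 µM it was 0.11 (adjusted p = 0.105) and -0.04 (adjusted p = 0.795).

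Psma4, another alpha subunit, was called at 100 µM at 24 h. Psma4 signals at 24 h were 16437, 17026, 17513, 17624 and 18070 in vehicle, 19542, 18017, 19570, 19178 and 18991 at 1 µM and 19476, 20047, 20583, 20493 and 21464 at 100 µM. At 48 h, Psma4 read 18521, 21052, 18634, 19525 and 20301 in vehicle, 18698, 19567, 20258, 20977 and 19675 at 1 µM and 19193, 21290, 21697, 21987 and 21390 at 100 µM. At 24 h the 100 µM arrays lay above all vehicle arrays, by 0.24 (SE 0.04, adjusted p = 9.06e-05). The groups overlapped at 48 h and the difference was 0.11 (SE 0.04, adjusted p = 0.0863), with replicate 1 of the 100 µM group the lowest of its group. It was called without that array (0.14, adjusted p = 0.0174), without vehicle replicate 2 (0.13, adjusted p = 0.0314) and after quantile normalization (0.12, adjusted p = 0.0293).

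Psma7, also in the alpha ring, rose at both times. Psma7 signals at 24 h were 17287, 16991, 18903, 17583 and 17847 in vehicle, 19071, 17512, 19734, 18442 and 19923 at 1 µM and 20724, 19151, 20926, 20020 and 21122 at 100 µM. At 48 h, Psma7 read 20964, 22630, 20662, 20920 and 20389 in vehicle, 21073, 21381, 20508, 21422 and 21209 at 1 µM and 21527, 23852, 25298, 24081 and 23437 at 100 µM. The rise was 0.20 at 24 h (SE 0.04, adjusted p = 5.85e-04), with no overlap of 100 µM and vehicle, and 0.16 at 48 h (SE 0.04, adjusted p = 0.00632), where the groups overlapped.

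Psma2, the last alpha subunit given array by array, also rose at both times. Psma2 signals at 24 h were 24624, 25757, 24876, 22765 and 25068 in vehicle, 26018, 27425, 27058, 25404 and 24986 at 1 µM and 29268, 30391, 30301, 26720 and 27906 at 100 µM. At 48 h, Psma2 read 27234, 27503, 25211, 24743 and 23135 in vehicle, 27585, 26908, 22845, 25396 and 23490 at 1 µM and 27841, 29327, 28529, 30008 and 26570 at 100 µM. Its rise was 0.23 at 24 h (SE 0.05, adjusted p = 0.00164), with separate groups. At 48 h it was 0.16 (SE 0.05, adjusted p = 0.0408) with groups that overlapped, and this call did not hold when only those 2 groups were fitted (adjusted p = 0.0790) or without any 1 of 7 of the 10 arrays compared (adjusted p 0.0506 to 0.155).

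Psmb5 encodes the catalytic beta subunit with chymotrypsin-like activity. Psmb5 signals at 24 h were 26246, 24777, 27975, 27670 and 28143 in vehicle, 30005, 26906, 31499, 30819 and 32388 at 1 µM and 31651, 33936, 33622, 32082 and 34001 at 100 µM. At 48 h, Psmb5 read 29197, 29587, 28573, 30284 and 27663 in vehicle, 30400, 31352, 28400, 31601 and 25391 at 1 µM and 33298, 34838, 35849, 35786 and 33871 at 100 µM. At both times all 5 arrays at 100 µM read above all vehicle arrays. The rise was 0.30 at 24 h (SE 0.05, adjusted p = 7.42e-05) and 0.26 at 48 h (SE 0.05, adjusted p = 5.16e-04). These values are of a probe set with a geometric mean signal of 30446. The gene has 2 dimmer probe sets, of geometric mean signal 317 and 111, which went the other way at 24 h: -0.45 (adjusted p = 0.552) and -1.66 (adjusted p = 0.00361) when each was tested as its own row. At 48 h they had -0.21 (adjusted p = 0.836) and 0.38 (adjusted p = 0.653). With the mean of the 3 probe sets the log2 fold change of Psmb5 was -0.60 at 24 h (adjusted p = 0.00764) and 0.14 at 48 h (adjusted p = 0.671). Which transcripts each probe set reads was not tested.

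Psmb7 encodes the catalytic subunit with trypsin-like activity. Psmb7 signals at 24 h were 11873, 10362, 11711, 10590 and 10193 in vehicle, 11298, 11502, 12237, 11759 and 11514 at 1 µM and 13034, 11993, 13290, 12850 and 13334 at 100 µM. At 48 h, Psmb7 read 12018, 13089, 11452, 11585 and 11768 in vehicle, 12447, 11598, 11798, 12233 and 12201 at 1 µM and 13341, 13832, 13683, 13768 and 13732 at 100 µM. The 100 µM arrays lay above all vehicle arrays at both times, by 0.24 at 24 h (SE 0.04, adjusted p = 8.64e-05) and 0.19 at 48 h (SE 0.04, adjusted p = 0.00144).

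Psmb3 encodes a beta subunit without a catalytic site. Psmb3 signals at 24 h were 31790, 28356, 31471, 27165 and 29228 in vehicle, 30308, 33614, 32130, 31116 and 29728 at 1 µM and 33346, 33681, 35919, 32108 and 33152 at 100 µM. At 48 h, Psmb3 read 31184, 35243, 30728, 31765 and 30720 in vehicle, 34498, 33339, 31375, 33545 and 32806 at 1 µM and 31274, 35409, 36105, 36460 and 34592 at 100 µM. It was higher at 100 µM and 24 h by 0.19 (SE 0.05, adjusted p = 0.00596), with groups that did not overlap. The difference at 48 h was 0.12 (SE 0.05, adjusted p = 0.0904), and 3 of the 5 arrays at 100 µM lay above all vehicle arrays. It was called without 100 µM replicate 1 (0.16, adjusted p = 0.0211), without vehicle replicate 2, the highest of its group (0.16, adjusted p = 0.0227), and after quantile normalization (0.17, adjusted p = 0.00562).

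Of the other 6 core genes, Psma1 rose by 0.14 at 24 h (SE 0.05, adjusted p = 0.0363), a call lost when only those groups were fitted (adjusted p = 0.103) and without any 1 of 4 arrays (adjusted p 0.0648 to 0.161). Psma3, Psma6, Psmb1, Psmb2 and Psmb4 were called in no comparison of BNF with vehicle, with log2 fold changes at 100 µM between -0.11 (Psma3, 48 h) and 0.07 (Psmb4, 24 h), though Psmb4 passed after quantile normalization (0.08 at each time, adjusted p = 0.0369 and 0.0250).

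In the 19S particle, 13 of the 20 genes rose at 100 µM and 24 h and 12 at 48 h. In the base these were 6 of 9 at 24 h and 7 of 9 at 48 h, in the lid 5 of 8 and 3 of 8, and among the assembly chaperones, which guide the building of the base and then leave, 2 of 3 and 2 of 3. Shares called higher were 10.7% of all genes at 24 h and 8.79% at 48 h, and 27.4% and 21.3% of the brightest genes. Log2 fold changes of the 20 genes ran from -0.03 (Psmd3) to 0.37 (Psmd5) at 24 h and from -0.06 (Psmd8) to 0.36 (Psmd1) at 48 h.

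Of the ATPases of the base, Psmc1, Psmc2, Psmc3, Psmc4 and Psmc6 were called higher at 24 h, by 0.16, 0.16, 0.25, 0.24 and 0.22, and Psmc1, Psmc3, Psmc4 and Psmc6 at 48 h, by 0.14, 0.26, 0.20 and 0.23. The calls of Psmc6 were lost after quantile normalization (adjusted p = 0.0524 and 0.0503), when only those groups were fitted (adjusted p = 0.0637 and 0.0732) and on means of its 3 probe sets (0.06 and 0.13, adjusted p = 0.60 and 0.234). Its probe set of geometric mean signal 12833 had 0.25 at 24 h (adjusted p = 0.0451) and 0.09 at 48 h (adjusted p = 0.60), and that of 2286 had -0.27 (adjusted p = 0.126) and 0.06 (adjusted p = 0.831). Psmc1 at 48 h lost its call when only those groups were fitted (adjusted p = 0.0576), and Psmc4 at 48 h without any 1 of 5 arrays (adjusted p 0.0609 to 0.109). Psmc5 was called at neither time (0.09 and 0.01). Psmd4, the ubiquitin receptor of the base, rose by 0.18 at 24 h (SE 0.04, adjusted p = 0.00192) and 0.17 at 48 h (SE 0.04, adjusted p = 0.00345). Psmd2, a large scaffold subunit, had 0.15 at 24 h (adjusted p = 0.0551) and 0.19 at 48 h (adjusted p = 0.0150). With only the groups compared in the fit, the first passed (adjusted p = 0.0457) and the second did not (adjusted p = 0.0603).

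Psmd1, the other large scaffold of the base, had the largest rise of any member at 48 h. Psmd1 signals at 24 h were 4294, 3857, 4101, 4164 and 4114 in vehicle, 3696, 3549, 4329, 3922 and 4051 at 1 µM and 4483, 4551, 4282, 4416 and 4966 at 100 µM. At 48 h, Psmd1 read 4999, 4902, 4574, 4290 and 4577 in vehicle, 4923, 4818, 5537, 5082 and 4416 at 1 µM and 5963, 6040, 5676, 5992 and 6293 at 100 µM. At 48 h the 100 µM arrays read above every vehicle and every 1 µM array, and the rise was 0.36 (SE 0.06, adjusted p = 1.55e-05, 1.28-fold). At 24 h the groups overlapped in the lowest array of 100 µM and the highest of vehicle, and the difference was 0.14 (SE 0.06, adjusted p = 0.0721), which passed with quantile normalization (0.16, adjusted p = 0.0385) and among the brighter genes alone (adjusted p = 0.0483). The change in the effect between times was 0.22 (SE 0.08, adjusted p = 0.242), so a difference between the times was not shown.

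Psmd11 encodes a lid subunit. Psmd11 signals at 24 h were 17006, 17755, 18877, 18706 and 16884 in vehicle, 19142, 18803, 20890, 19791 and 20758 at 1 µM and 21858, 22483, 21958, 22109 and 24336 at 100 µM. At 48 h, Psmd11 read 20108, 22666, 20281, 20586 and 19654 in vehicle, 20932, 21493, 21161, 21736 and 20629 at 1 µM and 21298, 24482, 24510, 24951 and 24829 at 100 µM. At 24 h the groups were separate, with a rise of 0.34 (SE 0.05, adjusted p = 1.94e-06, 1.26-fold). The rise at 48 h was 0.22 (SE 0.05, adjusted p = 9.65e-04), and of the 100 µM arrays only replicate 1 lay within the vehicle range. A second Psmd11 probe set, of geometric mean signal 10564, was higher by 0.25 (adjusted p = 1.64e-04) and 0.37 (adjusted p = 4.34e-07) at the 2 times. The third, of geometric mean signal 25, had -0.19 (adjusted p = 0.831) and 0.98 (adjusted p = 0.128), and with the mean of all 3 the call at 24 h was lost (0.13, adjusted p = 0.534).

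Psmd14 encodes the lid's deubiquitinase. Psmd14 signals at 24 h were 14622, 15727, 17336, 13734 and 16263 in vehicle, 14706, 16692, 17041, 16638 and 16133 at 1 µM and 18283, 17325, 19198, 19443 and 19014 at 100 µM. At 48 h, Psmd14 read 17306, 16678, 18427, 16852 and 14766 in vehicle, 18508, 17750, 17792, 17422 and 17779 at 1 µM and 15592, 16500, 17196, 15311 and 17038 at 100 µM. It was higher at 100 µM at 24 h, by 0.27 (SE 0.06, adjusted p = 5.83e-04), where 1 of the 5 arrays lay within the vehicle range. At 48 h the 100 µM arrays lay inside the vehicle range and below every 1 µM array, with a difference from vehicle of -0.04 (SE 0.06, adjusted p = 0.731). The effect at 48 h minus that at 24 h was -0.31 (SE 0.08, adjusted p = 0.0586), the largest such difference of the 40. It passed the threshold with quantile normalization (-0.31, adjusted p = 0.0348), among the brighter genes alone (-0.31, adjusted p = 0.0304) and without any 1 of 3 arrays (adjusted p 0.0138 to 0.0411). The 2 other Psmd14 probe sets were higher at 24 h by 0.43 (adjusted p = 2.11e-07) and 0.33 (adjusted p = 0.00395), and at 48 h had 0.14 (adjusted p = 0.0597) and 0.09 (adjusted p = 0.551).

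Of the other lid genes, Psmd6, Psmd7 and Psmd12 rose at 24 h, by 0.15, 0.15 and 0.21, and Psmd7 and Psmd12 at 48 h, by 0.21 and 0.22. The call of Psmd6 did not hold when only those groups were fitted (adjusted p = 0.0802). Psmd3, Psmd8 and Psmd13 were not called at either time, with log2 fold changes of -0.03, 0.05 and 0.13 at 24 h and 0, -0.06 and 0.11 at 48 h.

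Psmd5 encodes an assembly chaperone of the 19S base and not a subunit of the finished particle. Psmd5 signals at 24 h were 15218, 13710, 16372, 13870 and 15049 in vehicle, 13432, 14238, 16355, 17436 and 16584 at 1 µM and 18596, 18329, 19141, 19370 and 20673 at 100 µM. At 48 h, Psmd5 read 14992, 16007, 13791, 14987 and 15248 in vehicle, 14746, 14135, 13665, 14630 and 13609 at 1 µM and 17526, 18351, 19675, 19199 and 20373 at 100 µM. Its 100 µM arrays read above all vehicle and all 1 µM arrays at both times. The mean rose from 14844 ± 1090 (SD, n = 5) to 19222 ± 912 (SD, n = 5) at 24 h, and from 15005 ± 797 (SD, n = 5) to 19025 ± 1115 (SD, n = 5) at 48 h. The rise was 0.37 at 24 h (SE 0.06, adjusted p = 1.76e-05, 1.30-fold) and 0.34 at 48 h (SE 0.06, adjusted p = 7.44e-05, 1.27-fold), and at 1 µM the values were 0.07 and -0.08 (adjusted p = 0.621 and 0.640).

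Psmd9 encodes another base chaperone. Psmd9 signals at 24 h were 4733, 4270, 4905, 4367 and 4290 in vehicle, 4762, 4783, 5148, 5215 and 5256 at 1 µM and 5124, 5213, 5945, 5592 and 5347 at 100 µM. At 48 h, Psmd9 read 5242, 5727, 5702, 4995 and 4950 in vehicle, 5602, 5359, 4980, 5147 and 5666 at 1 µM and 5983, 5908, 5985, 5710 and 5934 at 100 µM. It rose by 0.27 at 24 h (SE 0.05, adjusted p = 1.97e-04) with separate groups. At 48 h the rise of 0.15 (SE 0.05, adjusted p = 0.0394) came with 1 array inside the vehicle range, and the call did not hold when only those groups were fitted (adjusted p = 0.0632), after quantile normalization (0.14, adjusted p = 0.0514) and without any 1 of 7 arrays (adjusted p 0.0633 to 0.129). A dimmer Psmd9 probe set, of geometric mean signal 670, had 0.17 at 24 h (adjusted p = 0.706) and -0.41 at 48 h (adjusted p = 0.312), and the mean of both probe sets was called at neither time (0.22 and -0.13, adjusted p = 0.205 and 0.569). The third chaperone, Psmd10, known as gankyrin, had 0.03 and 0.13 (adjusted p = 0.803 and 0.203).

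**Figure D2:**
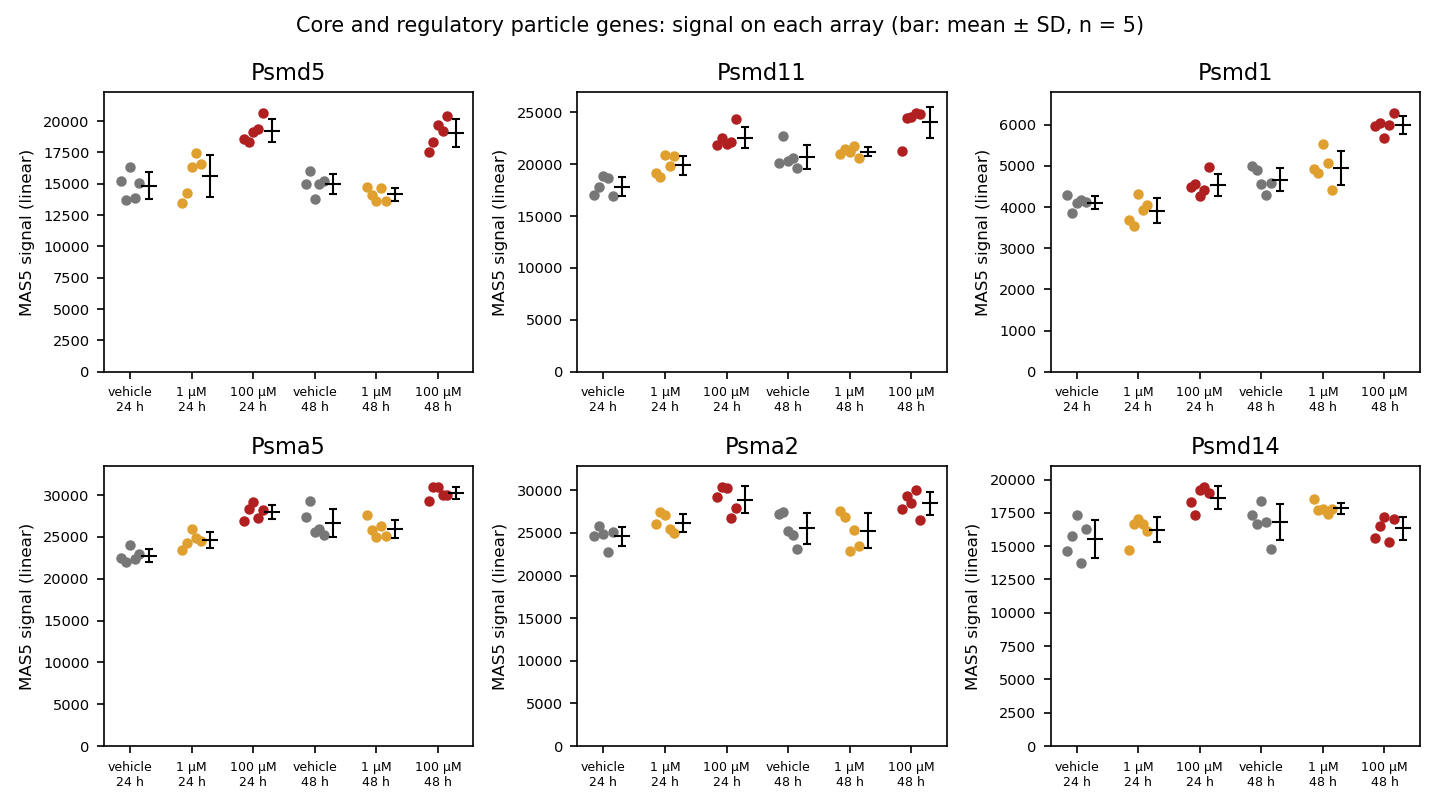
MAS5 signal on each array (linear axis from 0, points) for 6 core and 19S genes in the 6 groups, with the mean and SD of the 5 arrays beside the points. The 100 µM points lie above the vehicle points at both times for Psmd5 and Psma5, at 24 h for Psmd11 and Psma2 and at 48 h for Psmd1, and within the vehicle range at 48 h for Psmd14.

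Of the 21 members called higher at 24 h and the 20 at 48 h, which were set against separate vehicle arrays, 15 were called at both times (71.4% of those at 24 h and 75.0% of those at 48 h). Of all genes 5.19% were called higher at both times, 48.5% of those at 24 h and 59.0% of those at 48 h. Psma1, Psma4, Psmb3, Psmc2, Psmd6 and Psmd14 were called at 24 h and not at 48 h, and Psmb10, Psmd1, Psmd2, Psme2 and Psmf1 at 48 h and not at 24 h. The test of the change in effect between the times called 0 members (0.788% of all genes), with unadjusted p under 0.05 for 6 (3 in each direction). The effect of 100 µM was thus not shown to differ between the times for any of them.

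**Figure D3:**
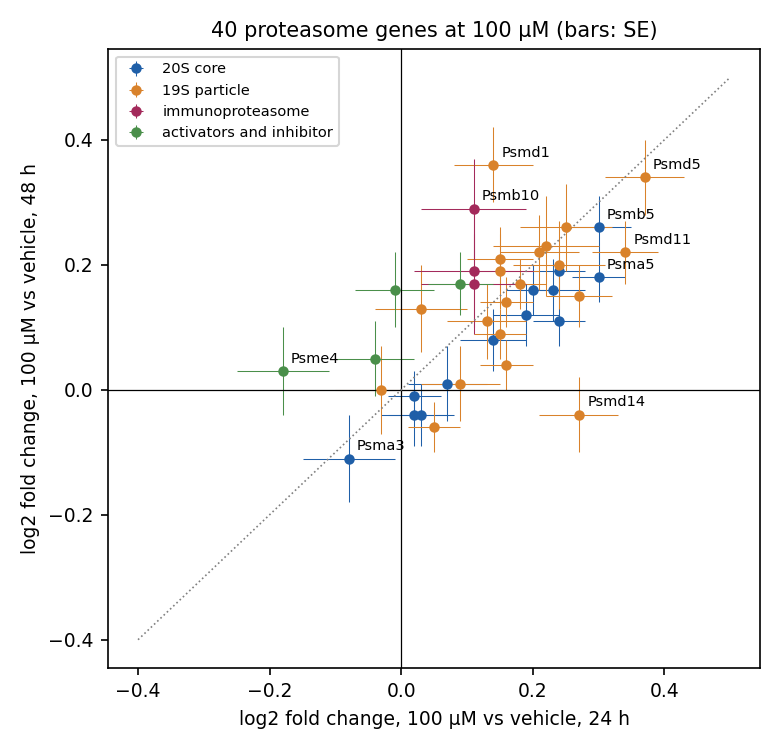
Log2 fold change of 100 µM against vehicle at 24 h (horizontal axis) and 48 h (vertical axis) for the 40 genes, coloured by class, with SE bars and a dotted line of equal values. Most core and 19S genes lie in the upper right with both values under 0.4, and Psmd14 has 0.27 at 24 h and -0.04 at 48 h.

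All 40 members were also compared between 100 and 1 µM. At 24 h 7 members were called higher at 100 than at 1 µM (3.14% of all genes) and 0 lower (4.57%). The 7 were Psma5, Psmb7, Psmd1, Psmd5, Psmd7, Psmd11 and Psmd14. Unadjusted p in limma was under 0.05 for 19 higher and 2 lower. At 48 h 11 were called higher (6.57% of all genes) and 0 lower (7.39%). The 11 were Psma2, Psma5, Psma7, Psmb5, Psmb7, Psmc1, Psmd1, Psmd4, Psmd5, Psmd7 and Psmd11. Unadjusted p was there under 0.05 for 19 higher and 1 lower. At 24 h the calls of Psma5, Psmd5 and Psmd7 held in all 18 alternatives. That of Psmb7 was lost after quantile normalization (adjusted p = 0.0630), with only those groups in the fit (adjusted p = 0.0518) and without any 1 of 7 arrays (adjusted p 0.0578 to 0.0923). On means of probe sets Psmd11 (0.23, adjusted p = 0.340) and Psmd14 (0.16, adjusted p = 0.0549) lost theirs, and Psmd1 did without 1 µM replicate 2 (adjusted p = 0.0596) or 100 µM replicate 5 (adjusted p = 0.0571). At 48 h 8 of the 11 held in all 18. Psmb5 turned to -0.07 on the mean of its probe sets (adjusted p = 0.865). Psma2 was lost with only those groups in the fit (adjusted p = 0.0687) and without any 1 of 4 arrays (adjusted p 0.0585 to 0.0913), and Psmc1 with those groups alone (adjusted p = 0.0655), after quantile normalization (0.07, adjusted p = 0.234) and without any 1 of 7 arrays (adjusted p 0.0522 to 0.121). The count at 24 h was 3 without 100 µM replicate 5, and that at 48 h was 20 when each array was centred on its median signal. Among the brightest genes 9.77% of genes and 6 of the 29 members were higher at 24 h, and 20.5% of genes and 10 of the 29 members at 48 h. Groups did not overlap, with 100 µM the higher, for 8 members at 24 h (3.31% of all genes) and 11 at 48 h (5.07%). Psmd5 had the largest differences between the doses, 0.31 at 24 h (SE 0.06, adjusted p = 8.67e-04) and 0.43 at 48 h (SE 0.06, adjusted p = 4.54e-06).

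Of the 4 genes for activators and the inhibitor, 0 were called at 100 µM and 24 h (unadjusted p under 0.05 for 1, Psme4). Among all genes 10.7% were called higher there and 10.4% lower, so 0 of 4 does not set this class apart. At 48 h Psme2 and Psmf1 were called higher (8.79% of all genes). The effects at the 2 times were not shown to differ for either (0.08, adjusted p = 0.731 for Psme2, and 0.17, adjusted p = 0.382 for Psmf1). Psme1 and Psme2 encode the PA28 ring, which opens the core without ATP and, like the immunoproteasome, answers to interferon. Psme2 signals at 24 h were 12930, 13853, 13179, 12978 and 13167 in vehicle, 14174, 15356, 14761, 14203 and 14060 at 1 µM and 14461, 14037, 14852, 13752 and 13468 at 100 µM. At 48 h, Psme2 read 17533, 17572, 16790, 16018 and 16285 in vehicle, 16300, 18442, 16701, 18574 and 17951 at 1 µM and 16710, 20085, 20621, 19554 and 18096 at 100 µM. At 48 h 4 of the 5 Psme2 arrays at 100 µM lay above all vehicle arrays, and the rise was 0.17 (SE 0.05, adjusted p = 0.0112); the call was lost without 100 µM replicate 3 (0.14, adjusted p = 0.0509) and when only those 2 groups were fitted (0.17, adjusted p = 0.0668). At 24 h the value was 0.09 (adjusted p = 0.193). Psme1 had -0.04 at 24 h and 0.05 at 48 h (adjusted p = 0.676 and 0.691).

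Psmf1 encodes PI31, an inhibitor of the core in vitro. Psmf1 signals at 24 h were 6932, 6760, 7699, 6289 and 7393 in vehicle, 6748, 7040, 7389, 7257 and 7189 at 1 µM and 6748, 6605, 7869, 6655 and 6829 at 100 µM. At 48 h, Psmf1 read 6678, 7648, 7422, 7543 and 6833 in vehicle, 8261, 7636, 7418, 8139 and 7153 at 1 µM and 8616, 7696, 7728, 8069 and 8167 at 100 µM. All 5 arrays at 100 µM lay above the vehicle arrays at 48 h, by 0.16 (SE 0.06, adjusted p = 0.0466), and at 24 h the groups overlapped (-0.01, adjusted p = 0.904). The call at 48 h was lost with quantile normalization (0.15, adjusted p = 0.0617), in fits restricted to those groups (adjusted p = 0.0565), on means of probe sets (adjusted p = 0.0528) or with the running number of the samples as a covariate (adjusted p = 0.0512), and without any 1 of 6 arrays (adjusted p 0.0526 to 0.145).

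Psme4 encodes the activator PA200. Psme4 signals at 24 h were 8985, 7593, 7991, 7908 and 7434 in vehicle, 7607, 6543, 7149, 7054 and 7380 at 1 µM and 7277, 6945, 6732, 6982 and 7313 at 100 µM. At 48 h, Psme4 read 6991, 7217, 6490, 7071 and 7359 in vehicle, 5976, 6203, 7947, 7059 and 7181 at 1 µM and 7045, 6554, 7457, 6504 and 8348 at 100 µM. It was the 1 member whose 100 µM arrays all read below all vehicle arrays at 24 h (7.92% of all genes), with a difference of -0.18 that missed the threshold (SE 0.07, adjusted p = 0.0644). It passed when only those 2 groups were fitted (-0.18, adjusted p = 0.0351), among the brighter genes alone (-0.18, adjusted p = 0.0387), without vehicle replicate 5 (-0.20, adjusted p = 0.0488) and with the mean of its probe sets (-0.36, adjusted p = 0.0186). Its probe set of geometric mean signal 4949 had 0.01 (adjusted p = 0.949) and that of 315 had -0.93 (adjusted p = 0.00846), so the probe sets of Psme4 disagreed in size.

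All 3 immunoproteasome genes were higher in vehicle at 48 h than at 24 h. These groups differ both in time in culture and in time in 1% DMSO, which cannot be told apart. Their arrays also served the comparisons with BNF, so calls over time and calls under BNF are not independent. Between vehicle at 24 and at 48 h 20 of the 40 members were called higher (8.64% of all genes) and 0 lower (8.60%), with unadjusted p under 0.05 for 23 higher and 1 lower (Psme4). Without vehicle 24 h replicate 2 the count was 13. The 48 h arrays all lay above the 24 h arrays for 13 members (5.61% of all genes). The 20 were all 3 immunoproteasome genes, Psme1 and Psme2, 5 core genes and 10 of the 19S particle. The calls of 9 held in all 18 alternatives: Psmb8, Psmb9, Psmb10, Psme2, Psma4, Psma5, Psma7, Psmc2 and Psmd6. Psme1, at 0.17 (adjusted p = 0.0363), turned to -0.13 on the mean of its probe sets (adjusted p = 0.789), and its dimmer probe set had -0.44 (adjusted p = 0.621). Median log2 fold changes were 0.86 in the immunoproteasome, 0.11 in the core, 0.15 in the 19S particle and 0.11 in the activators and inhibitor, and 0 over all genes. Among the brightest genes, which holds none of the immunoproteasome genes, 20.7% of genes and 13 of the 29 members were called higher. At 1 and 100 µM the immunoproteasome medians against vehicle were 0.25 and 0.11 at 24 h and 0.24 and 0.19 at 48 h. Core medians were 0.09 and 0.19, then -0.02 and 0.11, and 19S medians 0.06 and 0.16, then 0.01 and 0.16. Unadjusted p in limma was under 0.05 for 3 and 0 immunoproteasome genes at 24 h and 2 and 3 at 48 h, all higher. Their SEs, 0.08 to 0.09, exceeded the 0.04 to 0.07 of core genes, so call counts do not rank the classes.

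Psmb8 encodes the inducible counterpart of Psmb5. Psmb8 signals at 24 h were 3430, 2852, 3291, 2911 and 2598 in vehicle, 3641, 4073, 3046, 3294 and 3142 at 1 µM and 3205, 3677, 2764, 3555 and 3028 at 100 µM. At 48 h, Psmb8 read 6216, 6677, 5916, 6402 and 5072 in vehicle, 6976, 6056, 6531, 6544 and 6027 at 1 µM and 6141, 7266, 7144, 7083 and 6798 at 100 µM. Every 48 h array in every treatment read above every 24 h array. In vehicle the rise was 1.01 (SE 0.09, adjusted p = 3.31e-10, 2.01-fold). BNF gave no call: the differences from vehicle were 0.19 and 0.11 at 24 h for 1 and 100 µM (adjusted p = 0.244 and 0.459) and 0.09 and 0.19 at 48 h (adjusted p = 0.754 and 0.146).

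Psmb10 encodes the inducible counterpart of Psmb7. Psmb10 signals at 24 h were 1521, 1575, 1312, 1254 and 1240 in vehicle, 1716, 1580, 1602, 1535 and 1737 at 1 µM and 1657, 1288, 1590, 1409 and 1505 at 100 µM. At 48 h, Psmb10 read 2464, 2966, 2507, 2543 and 2065 in vehicle, 3112, 2654, 2904, 3089 and 2998 at 1 µM and 2797, 3072, 3175, 3010 and 3228 at 100 µM. Its 48 h arrays also lay above all 24 h arrays. Vehicle rose by 0.86 between the times (SE 0.08, adjusted p = 3.64e-09, 1.81-fold). At 100 µM and 48 h it was higher than vehicle by 0.29 (SE 0.08, adjusted p = 0.0112), with groups that overlapped, and without vehicle replicate 5 by 0.22 (adjusted p = 0.0594). The other differences from vehicle were 0.25 at 1 µM and 24 h (adjusted p = 0.0863), 0.11 at 100 µM and 24 h (adjusted p = 0.399) and 0.24 at 1 µM and 48 h (adjusted p = 0.194).

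Psmb9 encodes the inducible counterpart of Psmb6. Psmb9 signals at 24 h were 3677, 3688, 3183, 3084 and 3044 in vehicle, 4455, 4116, 4263, 3808 and 3922 at 1 µM and 4152, 3052, 4007, 3387 and 3427 at 100 µM. At 48 h, Psmb9 read 4423, 4619, 4495, 4378 and 3728 in vehicle, 5259, 5136, 5404, 5424 and 5109 at 1 µM and 4060, 4898, 5179, 5188 and 5064 at 100 µM. It was the only member called at 1 µM, with all 1 µM arrays above all vehicle arrays at 24 h: 0.31 (SE 0.08, adjusted p = 0.0195, 1.24-fold). The call was lost when each array was centred on its median (0.29, adjusted p = 0.0549) and without 1 µM replicate 1 or 3 or vehicle replicate 4 or 5 (adjusted p 0.0531 to 0.0641). At 48 h the 1 µM arrays again lay above all vehicle arrays, by 0.29 (SE 0.08, adjusted p = 0.0866). At 100 µM the values were 0.11 at 24 h (adjusted p = 0.387) and 0.17 at 48 h (adjusted p = 0.148), the latter 0.24 without 100 µM replicate 1 (adjusted p = 0.0328). The difference between 100 and 1 µM was -0.20 at 24 h (adjusted p = 0.137) and -0.12 at 48 h (adjusted p = 0.393). Vehicle rose by 0.38 between the times (SE 0.08, adjusted p = 6.75e-04, 1.30-fold).

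**Figure D4:**
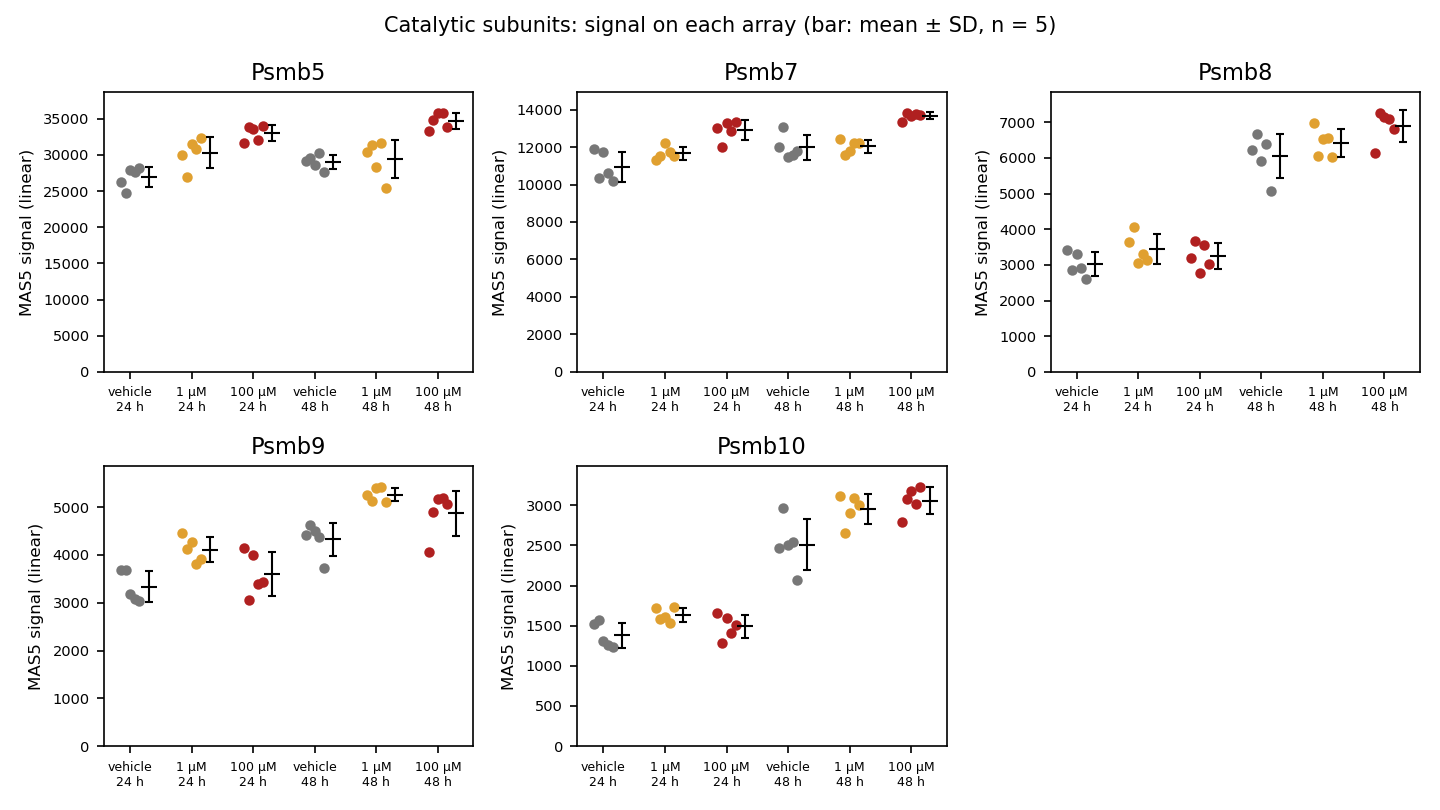
MAS5 signal on each array (linear axis from 0, points) for the catalytic subunits Psmb5 and Psmb7 of the core and Psmb8, Psmb9 and Psmb10 of the immunoproteasome, with mean and SD of 5 arrays. The 48 h points of Psmb8 and Psmb10 lie above all their 24 h points, and the Psmb5 and Psmb7 points at 100 µM lie above those of vehicle at each time.

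Whether an inducible gene moved apart from its constitutive counterpart was tested within arrays, as the difference of their log2 signals. The size of such a difference depends on the probe sets, so only its change between groups is read. There were 10 tests (2 pairs in 5 comparisons), each a two-sided exact permutation test of 5 against 5 arrays, for which 0.00794 is the smallest possible p. Psmb8 minus Psmb5 rose in vehicle from -3.17 at 24 h (SD 0.19) to -2.27 at 48 h (SD 0.11), a change of 0.90 (exact p = 0.00794, adjusted p = 0.0265 over the 10), with no overlap. Psmb10 minus Psmb7 rose by 0.73 over the same time (exact p = 0.00794, adjusted p = 0.0265), also with no overlap. BNF at 1 µM and 48 h raised Psmb10 minus Psmb7 by 0.23 (exact p = 0.00794, adjusted p = 0.0265), with no overlap. The other 7 changes had adjusted p from 0.286 to 0.905 by the exact test, among them -0.19 for Psmb8 minus Psmb5 and -0.13 for Psmb10 minus Psmb7 at 100 µM and 24 h. On means of probe sets the first of these turned to 0.71 (exact test, adjusted p = 0.0595). Psmb9 and Psmb6 could not be paired, since Psmb6 was not analysed here. Leaving out 1 array moved the change in vehicle to between 0.83 and 0.96 for the first pair and between 0.69 and 0.80 for the second, and the change at 1 µM and 48 h to between 0.17 and 0.26. With 4 against 5 arrays the smallest exact p is 0.0159. Where only these 3 of the 10 changes have a small p, that becomes an adjusted p of 0.0529. A change could then pass only where another of the 10 tests also had a small p, however separate its groups were. These 3 changes passed the threshold in 1, 1 and 0 of 10 such tests, with adjusted p of at most 0.0529. These p-values therefore cannot decide whether the 3 changes rest on 1 array.

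**Figure D5:**
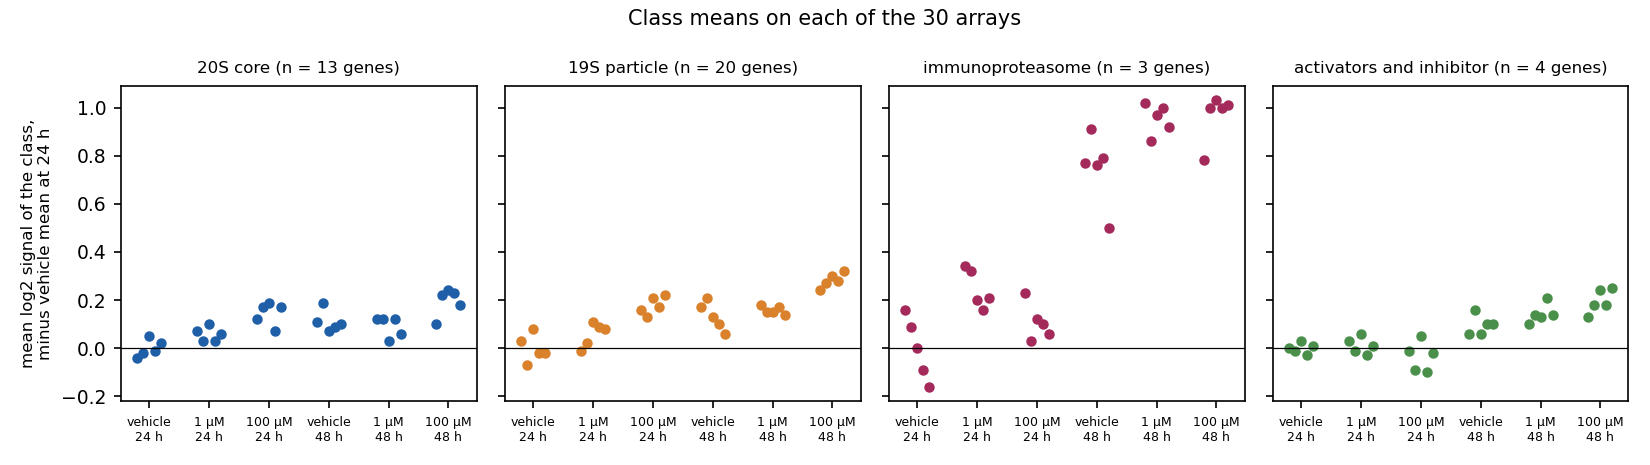
Mean log2 signal of the genes of each class on each array (points), minus the mean of vehicle at 24 h, by group; the mean over genes is a description and was not tested. The immunoproteasome lies at 0.50 to 1.03 on the 48 h arrays and at -0.16 to 0.34 on the 24 h arrays, and the other 3 classes stay between -0.10 and 0.32.

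Genes of class I antigen presentation were counted beside the immunoproteasome, in vehicle over time against 8.64% of all genes called higher and 8.60% lower. Of 9 measured, 4 were higher in vehicle at 48 h than at 24 h and 0 lower (unadjusted p under 0.05 for 5 higher and 0 lower): Tap1 and Tap2, the peptide transporter, by 0.64 (adjusted p = 4.97e-08, and 0.84 with adjusted p = 0.0805 on means of probe sets) and 0.64 (adjusted p = 7.87e-04), Tapbp, which loads peptides, by 0.45 (adjusted p = 6.23e-07) and Pdia3, a disulfide isomerase of the loading complex, by 0.23 (adjusted p = 0.00147). At 100 µM Pdia3 was higher at both times (0.25 and 0.22) and Canx, a chaperone of the endoplasmic reticulum, at 24 h (0.15), but with the mean of their probe sets the values at 24 h were -0.04 and -0.02 and neither was called. At 1 µM 0 of the 9 were called at either time (unadjusted p under 0.05 for 1 at each). Cell types other than hepatocytes were read from marker genes. Of the lymphocyte markers all 8 measured lay below the median gene and 0 were called in any comparison (unadjusted p under 0.05 for 0 as well, in limma), and their summed signal was 1448 to 1659 in vehicle at 24 h and 1393 to 1861 at 48 h. Macrophage markers summed to 14809 to 18503 and 13157 to 13637, with 5 of 7 below the median gene and 2 (Cd14 and Clec4f) lower at 48 h. Hepatocyte markers had a median percentile of 99.7, and their sum was 373215 to 435054 in vehicle at 24 h and 328801 to 403721 at 48 h. Of the 7 measured, 3 were called lower at 48 h (8.60% of all genes). The part of these shifts in the proteasome results was not tested.

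The markers also differed at 100 µM. Hepatocyte markers called lower were 2 of 7 at 24 h (10.4% of all genes) and 4 of 7 at 48 h (8.62%). At 48 h their sum was 257917 to 320423 at 100 µM against 328801 to 403721 in vehicle. Macrophage markers summed to 18077 to 21233 at 100 µM and 24 h and to 10782 to 12060 at 48 h. Cd14 was higher at 100 µM and 24 h by 0.24 (adjusted p = 0.0143) and lower at 48 h (-0.24, adjusted p = 0.0153), and the change between these effects was called (-0.47, adjusted p = 0.0118), though not with arrays centred on their medians (-0.46, adjusted p = 0.0514). The 5 endothelial and 5 stellate cell markers measured all lay below the median gene, with sums of 627 to 1958 and 1405 to 2362 over the 6 groups. At 100 µM, Lrat of the stellate list was lower at 24 h (log2 fold change -2.08, adjusted p = 0.0329) and Stab2 of the endothelial list at 48 h (-1.60, adjusted p = 0.0237). In vehicle at 48 h against 24 h Stab2 was higher (1.44, adjusted p = 0.0450) and Lyve1, also endothelial, lower (-0.96, adjusted p = 0.00257). Of 3 bile duct markers, 2 lay below the median gene, and Epcam was lower at 100 µM and 48 h by 0.36 (log2 fold change -0.36, adjusted p = 6.57e-08) and higher in vehicle at 48 h than at 24 h by 0.14 (adjusted p = 0.0140). The calls of Lrat, Stab2, Cd14 at 100 µM, Clec4f over time and Epcam over time were each lost without at least 1 array (adjusted p 0.0516 to 0.196). The part of these markers in the rise of the subunit genes was not tested.

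Factors that assemble or serve the proteasome also moved at 100 µM. Of 13 measured, 6 were higher at 24 h (10.7% of all genes) and 5 at 48 h (8.79%). At either time 0 were lower (unadjusted p under 0.05 for 7 higher and 0 lower at each). At 1 µM 0 were called (unadjusted p under 0.05 for 2 at 24 h and 1 at 48 h). The following values are at 100 µM. Zfand2a, an AN1-type zinc finger protein induced by arsenite that associates with the proteasome, rose most, by 0.89 at 24 h (SE 0.10, adjusted p = 4.15e-08) and 0.99 at 48 h (SE 0.10, adjusted p = 5.09e-09). Usp14, a deubiquitinase that docks on the 19S particle, rose by 0.24 and 0.26, Zfand5, a proteasome activator, by 0.23 and 0.21, and Psmg2, a chaperone of the alpha ring, by 0.27 and 0.19. Pomp, the maturation factor of the core, had 0.03 and 0.04 (adjusted p = 0.691 and 0.634), the latter 0.09 after quantile normalization (adjusted p = 0.0344). In vehicle 5 of the 13 were also called higher at 48 h than at 24 h (8.64% of all genes) and 0 lower (8.60%). Psmg2, Usp14 and Zfand5 were among them.

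Of 13 measured genes for ubiquitin supply and shuttling, 5 were higher at 100 µM and 24 h (10.7% of all genes) and 4 at 48 h (8.79%). At either time 0 were lower (unadjusted p under 0.05 for 7 and 6, all higher). Uba6, a ubiquitin-activating enzyme, rose by 0.41 and 0.33 and also at 1 µM and 24 h by 0.28 (adjusted p = 0.0466), a call lost when arrays were centred on their medians (0.26, adjusted p = 0.115) and without any 1 of 7 arrays (adjusted p 0.0564 to 0.134). Ubqln2, a shuttle to the proteasome, rose by 0.32 and 0.34, Vcp, the p97 unfoldase, by 0.22 and 0.23 (adjusted p = 0.0463 and 0.0368, the first lost with centring, quantile normalization or means of probe sets, at 0.0527 to 0.0651), and Nsfl1c, the p97 cofactor p47, by 0.25 and 0.22. Ube2k, a ubiquitin-conjugating enzyme, rose at 24 h by 0.21 (adjusted p = 0.00446) and at 48 h had 0.06 (adjusted p = 0.496). With the mean of their probe sets Ubqln2 had 0.12 and 0.04 (adjusted p = 0.787 and 0.941), and Ube2k had 0.02 at 24 h (adjusted p = 0.933). In vehicle 3 of the 13, Nsfl1c, Ube2k and Ubqln2, were also called higher at 48 h than at 24 h (8.64% of all genes). There 0 were called lower (8.60%).

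Among 9 measured regulators, 4 were higher and 2 lower at 100 µM at each time. Of all genes 10.7% were called higher and 10.4% lower at 24 h, and 8.79% and 8.62% at 48 h. Unadjusted p in limma was under 0.05 for 4 regulators higher and 2 lower at 24 h, and for 6 and 2 at 48 h. At 1 µM 1 regulator was called higher and 2 lower at 24 h (1.91% and 2.40% of all genes), and 0 at 48 h. There unadjusted p was under 0.05 for 2 higher and 3 lower at 24 h, and for 2 and 1 at 48 h. Nfe2l2 (NRF2) rose by 0.44 at 24 h (SE 0.05, adjusted p = 1.88e-08) and 0.45 at 48 h (SE 0.05, adjusted p = 1.06e-08), while Nfe2l1 (NRF1) had 0.18 and 0.14 (adjusted p = 0.317 and 0.474), and passed at 24 h on the mean of its probe sets (0.26, adjusted p = 0.00149). The partner genes Maff and Mafk rose by 0.55 and 0.37 at 24 h and by 0.43 and 0.59 at 48 h. Mafg, also on this list, was called higher at 48 h and not at 24 h. Ddi2, the protease that activates NRF1, fell by 0.58 at 24 h (log2 fold change -0.58, adjusted p = 7.79e-07) and by 0.27 at 48 h (-0.27, adjusted p = 0.00946), and was also lower at 1 µM and 24 h (-0.43, adjusted p = 6.39e-04). With the mean of its probe sets Ddi2 had -0.09 at 24 h and 0.11 at 48 h (adjusted p = 0.868 and 0.860). Ngly1, the deglycosylase of NRF1, was lower at 100 µM by 0.33 and 0.15 (-0.33, adjusted p = 2.91e-06, and -0.15, adjusted p = 0.0243), the latter lost when arrays were centred (-0.12, adjusted p = 0.107). Ngly1 was also called lower at 1 µM and 24 h. In vehicle Ddi2 and Ngly1 were both called lower at 48 h than at 24 h (8.60% of all genes). Irf1, an interferon-response factor, was higher at 24 h, by 0.34 at 1 µM (adjusted p = 0.0151) and 0.49 at 100 µM (adjusted p = 4.49e-05), and at 48 h had 0.19 and 0.22 (adjusted p = 0.395 and 0.0748). It rose in vehicle between the times by 0.29 (adjusted p = 0.0149). The Irf1 calls at 1 µM and between the times were lost without 1 array in the first case and without either of 2 in the second (adjusted p 0.0565 to 0.0651).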

How the data were processed

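The deposited values were MAS5 signals, a linear intensity for each of 31099 probe sets on 30 Affymetrix arrays; MAS5 is named in the submitters' processing notes, and its version is not given in the sources used here. Per the values, each deposited array had been scaled to a trimmed mean of 1500.5 to 1500.6 with 2% trimmed at each end. Signals were taken to log2 with nothing added and not normalized further. Of the probe sets 57 were controls, 20826 carried 1 gene symbol, 436 several and 9780 none; probe sets with several or none were left out. For each of 14217 genes (4525 with more than 1 probe set) the brightest probe set by mean log2 signal was used.

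Group means were fitted over all 30 arrays with limma 3.58.1 in R 4.3.3 (lmFit, eBayes with trend), a fit that was also tested on simulated data, with Benjamini-Hochberg adjustment over all genes tested and calls under 0.05. Exact permutation tests were run in SciPy 1.17.1 under Python 3.11.15. The test planned for Psmb9 and Psmb6 was not run, since Psmb6 was left out. Alternatives were array centring, quantile normalization, the brighter genes alone (mean signal at or above the median gene), 64 added before log2, the mean of a gene's probe sets, the running number in the sample titles as a covariate, the 5 sets of 6 running numbers as a block, the groups compared alone, and each array left out in turn.

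Groups came from the treatment and time labels. Values on each array are printed for the catalytic subunits measured and for up to 5 other core genes, 5 of the 19S particle and 3 activators or inhibitors with the smallest adjusted p against vehicle, and up to 4 genes are named for each other list. Pomp, Vcp, Nfe2l1, Maff, Mafg, Irf1, Tap1, Tap2 and Clec4f fall outside that rule and were named after their values were seen. The members and the lists were chosen with earlier results of these data known. Promoters were read from RefSeq (GRCr8) by gene ID.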

Additional observations from a re-analysis of the deposited data

Results flagged for a closer look

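In 10 of the 108 groups of 5 arrays tested for the 18 genes given array by array, the highest or lowest array stood apart from the others: its gap to the nearest array was more than 0.71 of the group's whole range. Chance gives about 1 such group in 20.

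Replicate 1 of BNF 100 µM at 48 h was the low array for Psmb9 (4060, the others 4898 to 5188), Psma4 (19193, the others 21290 to 21987) and Psmd11 (21298, the others 24482 to 24951). Without that array 18 members were called higher at 100 µM and 48 h, against 20 with it. In the same group replicate 4 was low for Psmd9 (5710, the others 5908 to 5985).

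Replicate 2 of vehicle at 48 h was high for Psma7 (22630, the others 20389 to 20964) and Psmb3 (35243, the others 30720 to 31765), and replicate 5 of that group was low for Psmb9 (3728, the others 4378 to 4619). Psme2 was high in replicate 2 of vehicle at 24 h (13853, the others 12930 to 13179). At 100 µM and 24 h, Psmd11 was high in replicate 5 (24336, the others 21858 to 22483) and Psmf1 in replicate 3 (7869, the others 6605 to 6829). What sets these arrays apart was not tested.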

How the results depend on the processing

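Counts of the 40 members called at 100 µM against vehicle stayed within 1.5 times at 24 h (19 to 24, with 2 lower on means of probe sets and 1 lower among the brighter genes or in the groups alone) and at 48 h, except for 13 with the groups alone. At 1 µM and 24 h the count of 1 became 0 with centring, 6 with quantile normalization, 4 among the brighter genes, 2 with means of probe sets and 3 with the running number. For 100 against 1 µM at 48 h it was 20 with centring. The change in effect between times called 1 member, Psmd14, lower, with quantile normalization and among the brighter genes. Leaving out 1 array gave 0 to 4, 19 to 22, 0 to 0 and 14 to 22 members (1 and 100 µM at 24 h, then at 48 h), 3 to 8 and 9 to 15 for 100 against 1 µM, 13 to 19 for vehicle over time and 0 to 1 for the change in effect.

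Of the values for single genes, 10450 kept their call (262 of these, called in neither, changed sign), 131 gained and 267 lost it, and 20 reversed. With means of probe sets Psmb5 at 24 h was -0.60 against vehicle and -0.58 against 1 µM, and -0.07 against 1 µM at 48 h; Psmd11 was -0.12 and Psme1 -0.13 over time, Psmd9 -0.13 at 100 µM and 48 h, Ubqln2 -0.06 against 1 µM at 48 h, Ddi2 0.11 at 48 h, and Pdia3 -0.04 and Canx -0.02 at 24 h. Single probe sets gave -0.45 and -1.66 for Psmb5 at 24 h, -0.21 at 48 h, and -1.59 at 24 h and -0.51 at 48 h against 1 µM; -0.19 for Psmd11 at 24 h and -0.66 over time; -0.27 for Psmc6 at 24 h; -0.41 for Psmd9 at 48 h; and -0.44 for Psme1 over time. The cause was not tested.

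The single probe sets, the brightest genes as background and alternatives for pair differences were added after the data were seen. With means of probe sets Psmb8 minus Psmb5 at 100 µM and 24 h was 0.71 (exact test, adjusted p = 0.0595). Leave-one-out ranges for this pair were -0.09 to 0.08 and -0.26 to -0.13 at 24 h (1 and 100 µM), 0.03 to 0.12 and -0.11 to -0.04 at 48 h, and 0.83 to 0.96 over time; for Psmb10 minus Psmb7 they were 0.11 to 0.22, -0.17 to -0.06, 0.17 to 0.26, 0.04 to 0.13 and 0.69 to 0.80. The running numbers form 5 sets of 6 arrays with 1 array of each group. Arrays of a set did not deviate together: over 35 pairs the correlations of their deviations from the group means were -0.04 to 0.11, with 1 over 0.1, and 1 to 3 of 5 arrays per comparison correlated best with their own set. With the set as a replicate block, added after the data were seen, 3 members were called at 1 µM and 24 h and 1 (Psmd14, lower) for the change in effect. The other counts were 22 and 19 at 100 µM (24 and 48 h), 0 at 1 µM and 48 h, 7 and 11 for 100 against 1 µM and 21 over time, and Psmf1 at 48 h lost its call (adjusted p = 0.0541).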
